A study of Mus musculus with 7 samples.

Results

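The comparison described here sets haematopoietic stem cells cultured with hydroxyurea (HU) against the same kind of cells cultured with the solvent DMSO, in 5 of the series' 7 RNA-seq libraries. All 5 libraries were made from bone marrow cells of wild-type C57BL/6J mice, sorted as lineage-negative, Sca-1 and c-Kit positive (LSK) cells that carried CD150 and lacked CD48. The control group had 3 libraries of cells given DMSO, and the treated group had 2 libraries of cells given HU at 100 µM; both groups were taken after 48 h of culture. No genotype, allele or second agent separated the groups, and the age and sex of the mice were not given. The values were FPKM (fragments counted on a gene, divided by its transcript length and by sequencing depth) for 52224 genes. A gene was kept when 2 or more of the 5 libraries reached a deposited FPKM of 5, before any scaling, which left 8922 genes. Their values were then scaled so that the trimmed mean of the log ratios between libraries was equal. All levels below are scaled FPKM in the order DMSO 1, 2, 3 and HU 1, 2 unless another unit is named, and all fold changes are differences of log2(scaled FPKM + 1), HU minus DMSO, a scale that shrinks the changes of low genes. Whether replicate libraries stem from different mice or culture wells is not given, so the p-values speak of the spread among these 5 libraries alone, which could be technical.

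Hydroxyurea quenches the tyrosyl radical in the small subunit of ribonucleotide reductase, the enzyme that converts ribonucleotides to deoxyribonucleotides. When deoxynucleotides run low, replication forks slow or stall, single-stranded DNA is bound by the RPA complex, and the ATR and CHK1 kinases delay the cell cycle and hold late origins back. The Fanconi anaemia proteins protect and restart stalled forks, and their loss leads to bone marrow failure, which makes stem cells a tissue of interest for replication stress. DEK, a chromatin protein, and Fanconi anaemia are named in the title of the series, and the comparison addresses which transcripts differ after the drug.

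After 2 days in culture transcripts of stem cell genes were present at varied levels. Slamf1, the gene of CD150, lay at 1.10, 1.00 and 0.372 in DMSO and 1.09 and 0.811 in HU, and Fgd5 did not exceed 0.588 in any library. Kit was present at 38.0, 35.6 and 43.7 in DMSO and 36.7 and 40.9 in HU, and Procr, which encodes the protein C receptor, at 12.95, 8.93 and 15.4 against 14.3 and 10.7. Ly6a, the gene of Sca-1, lay at 30.7, 30.4 and 43.8 in DMSO and 17.8 and 21.5 in HU and missed the threshold (-0.79, limma adjusted p = 0.0538). Cd48, whose protein was absent at the sort, stood at 196, 179 and 194 in DMSO and 123 and 133 in HU, and fell (log2 fold change -0.57 ± 0.08 SE, limma adjusted p = 0.0234); with the correction for gene length and level described below it was at -0.25 (adjusted p = 0.217). Of 35 stem cell genes 20 could be tested and 0 passed in either direction, with a median fold change of 0.02. The stem cell label of these libraries rests on the sort, and no cells from before culture were analysed here.

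The 2 groups differed over the whole table before any gene was considered. Added over all genes, the deposited FPKM came to 818775 to 832979 per DMSO library and to 647760 and 651315 for the HU libraries. The number of genes above 0 was 21251 to 23047 per DMSO library, against 29687 and 31153 with HU. Of 1766 olfactory receptor genes, a family with no known role in blood, 373 to 400 were above 0 in DMSO and 1182 and 1204 in HU. The 10 most abundant genes held 16.3% to 20.5% of the FPKM in DMSO and 25.5% and 26.0% in HU. The groups did not overlap in any of these 4 measures, and each gave an exact two-sided permutation p of 0.1, the smallest that 2 libraries against 3 allow. Sequencing depth is unknown, and the share of these differences in the gene results below was not tested.

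A total of 146 genes were higher (1.64% of those tested) and 333 lower (3.73%) in HU at an adjusted p below 0.05 in limma with Benjamini-Hochberg adjustment. All 479 had HU values that lay wholly outside the DMSO values. The shares of 1.64% and 3.73% are the background for each count of list members called below. By lack of overlap alone, 1887 genes lay higher (21.1%) and 1897 lower (21.3%). Without scaling, the deposited values gave 85 genes higher and 4837 lower (0.953% and 54.2%), with the median gene at -0.39 on the log2 scale against 0.0075 after scaling. Changes below are therefore relative to the bulk of genes. The counts rested on few libraries: without HU replicate 1 limma called 6 higher (0.0672%) and 3 lower (0.0336%), and without HU replicate 2 it called 9 (0.101%) and 4 (0.0448%). Without DMSO replicate 1 it called 26 (0.291%) and 10 (0.112%), without DMSO replicate 2 it called 59 (0.661%) and 56 (0.628%), and without DMSO replicate 3 it called 234 (2.62%) and 597 (6.69%).

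**Figure D1:**
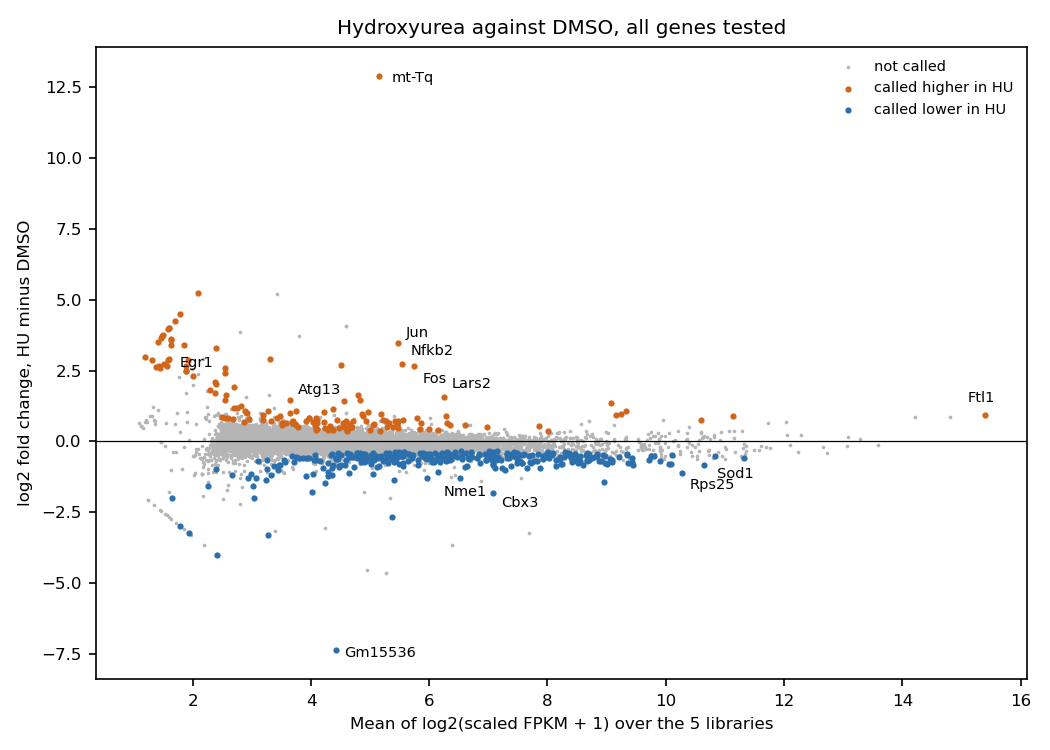
Each point is 1 of the 8922 genes tested. The x axis is the mean of log2(scaled FPKM + 1) over the 5 libraries and the y axis the log2 fold change of HU against DMSO. Orange points are the 146 genes called higher and blue points the 333 called lower by limma; Jun, Nfkb2 and Fos stand above 2.5 at moderate levels, while most falls lie within 1 log2 unit of 0.

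Fold changes went along with gene length, and genes called lower were short. The median exonic length was 1719 bases for genes called lower, 3533 for genes called higher and 4145 for all genes tested with a length in the annotation. Genes were split by length into 10 groups. In group 1, of 71 to 1415 bases, the median fold change was -0.29 and 15.4% were called lower. In group 10, of 9559 to 41155 bases, the median was 0.14 and 0.459% were called lower. Both HU libraries showed this trend, with medians of -0.28 and -0.31 in group 1, and DMSO 3 showed it to a smaller degree at -0.09, against 0.04 and 0.05 in DMSO 1 and 2. After fold changes were corrected for exonic length and mean level, limma called 62 genes higher (0.711%) and 48 lower (0.551%), and 19.2% lay higher and 19.2% lower without overlap. Biology that differs between short and long genes and a change in how fragments of short transcripts were captured cannot be told apart in these libraries, so the corrected counts or values are given beside the gene groups whose calls it changes.

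**Figure D2:**
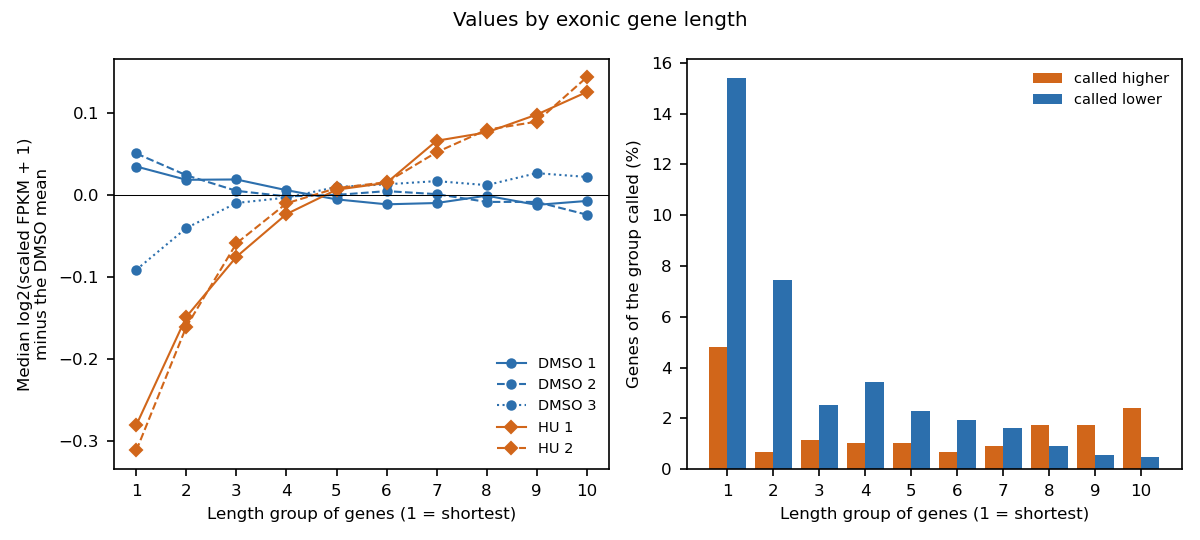
Genes are split into 10 groups of similar size by exonic length, shortest at 1. The left panel plots the median deviation of each library's log2(scaled FPKM + 1) from the DMSO mean, with HU libraries at -0.28 and -0.31 in group 1 and 0.13 and 0.14 in group 10; the right panel plots the share of each group called higher or lower by limma, with 15.4% of group 1 called lower.

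The transcripts of the drug's own target did not pass the test. Rrm1, which encodes the large subunit of ribonucleotide reductase, lay at 67.6, 61.7 and 77.1 in DMSO and at 60.7 and 63.1 in HU (-0.14 ± 0.11 SE, limma adjusted p = 0.463). Rrm2, the S-phase small subunit that carries the radical, lay at 77.0, 56.0 and 83.7 in DMSO and at 79.2 and 71.0 in HU (0.07 ± 0.17 SE, adjusted p = 0.826). Values of both groups overlapped for both genes. Rrm2b, the p53-induced small subunit, was below the filter on the deposited values and was not tested. Those values were 3.78, 3.39 and 4.72 in DMSO and 4.48 and 5.16 in HU, with overlap. After scaling, its 2 HU values of 5.41 and 6.07 lay above its DMSO values of 3.32, 3.001 and 4.28.

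Among 35 tested genes of deoxynucleotide and nucleotide supply, 0 rose and 2 fell (5.71%, against 3.73% of all genes tested). The median was -0.11, against 0.0075 for all genes. The 2 were neighbours on chromosome 11 that encode nucleoside diphosphate kinases, enzymes that add the last phosphate to nucleoside diphosphates. Nme1 (chr11:93956979-93968521) stood at 135, 138 and 119 in DMSO and at 53.1 in both HU libraries. This was the sixth largest fall by the naming rule, at -1.28 ± 0.09 SE (limma adjusted p = 0.00316), and it was -1.19 (adjusted p = 0.00579) after the length and level correction. Nme2 (chr11:93949814-93956259), at 273, 275 and 291 in DMSO and 204 and 183 in HU, fell by 0.53 on the log2 scale (adjusted p = 0.0253), but was at -0.18 (adjusted p = 0.311) after the correction. Both genes share bases with the annotated readthrough gene Gm20390, so fragments may have been divided between them. Dut and Dtymk, which keep uracil out of DNA and make dTTP, and Tyms, the thymidylate synthase gene, were at -0.38, -0.32 and -0.23 and did not pass.

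At the replication fork the small single-strand binding subunit and a fork protection factor moved in opposite directions. Timeless, which encodes the partner of Tipin in the complex that ties helicase to polymerase and relays the checkpoint signal, lay at 11.5, 12.9 and 14.5 in DMSO and at 29.99 and 25.6 in HU. Both HU values were above every DMSO value, a rise of 1.04 ± 0.13 SE (limma adjusted p = 0.0143), and 0.96 (adjusted p = 0.0241) after the correction. Rpa3, the smallest subunit of the RPA complex, lay at 58.4, 62.1 and 54.8 in DMSO and at 32.4 and 31.1 in HU. It fell by 0.86 ± 0.09 SE on the log2 scale (adjusted p = 0.00783), and was at -0.59 (adjusted p = 0.0251) after the correction. Of the other 2 RPA subunits Rpa1 was at 0.01 and Rpa2 at 0.03, and neither passed.

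Of 31 fork synthesis genes in all, 1 rose and 2 fell (median -0.20), and 1 of each was called after the correction. Without overlap 14 lay lower (45.2%, against 21.3% of all genes tested) and 5 higher (16.1%, against 21.1%). The second fall was Rnaseh2a, a subunit of the enzyme that removes ribonucleotides from DNA, at 58.2, 57.1 and 49.9 in DMSO and 40.5 and 40.5 in HU (-0.43); it was named after its values were seen. Tipin, the partner of Timeless, was at -0.41, the sliding clamp gene Pcna at -0.39 and the checkpoint mediator Clspn at -0.47, and these 3 did not pass. Fen1, the flap nuclease gene, was at 81.6, 70.4 and 109 in DMSO and 127 and 128 in HU (0.57), also without passing. The median of 24 genes of origin licensing and the replicative helicase was -0.07. Of these, 0 rose and 1 fell (4.17%, against 3.73% of all genes tested). This was Orc6, an origin recognition subunit, at 32.2, 36.7 and 38.5 in DMSO and 21.9 and 21.6 in HU (-0.69 ± 0.10 SE, limma adjusted p = 0.0234). The genes Mcm2 to Mcm7 of the helicase ring stayed between -0.14 and 0.13, and 0 of them passed.

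In the checkpoint list of 21 tested genes 1 rose and 0 fell, with a median of 0.08. Chek2, which encodes a kinase that acts downstream of ATM, lay at 23.6, 22.1 and 18.9 in DMSO and at 30.9 and 31.4 in HU, without overlap. The rise was 0.52 ± 0.11 SE (limma adjusted p = 0.0480), but the call was kept in only 3 of 16 alternative settings. Among the settings that lost it were the deposited values (0.11, adjusted p = 0.437), quantile normalization and the correction (adjusted p = 0.0703). Chek1, the kinase activated by ATR at stalled forks, was at -0.27, Atr at 0.35 and its partner Atrip at 0.53, and none of these 3 passed. Trp53bp1, a DNA break repair factor, was at 3.47, 3.67 and 5.28 in DMSO and 6.98 and 7.57 in HU (0.70) and did not pass either. Of 21 tested Fanconi anaemia genes 0 passed, with values from Fancl at -0.46 to Fancc at 0.61. Without overlap 6 lay higher (28.6%, against 21.1% of all genes tested) and 4 lower (19.0%, against 21.3%). Dek, the gene named in the series title, lay at 122, 130 and 124 in DMSO and at 104 and 99.7 in HU. Its groups did not overlap, but it missed the threshold (-0.29 ± 0.08 SE, adjusted p = 0.0746).

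Targets of p53, the factor that answers DNA damage, showed no call in either direction among 26 tested, with a median of 0.07. Cdkn1a, the p21 cell cycle inhibitor and a standard p53 target, lay at 84.2, 96.6 and 85.6 in DMSO and at 60.5 and 79.2 in HU. Both HU values were below the DMSO values, and the difference missed the threshold (-0.35 ± 0.13 SE, limma adjusted p = 0.162). Mdm2, the p53 ubiquitin ligase gene, was at 32.7, 28.8 and 36.3 in DMSO and 38.1 and 38.0 in HU (0.22, adjusted p = 0.271). Mki67, the proliferation marker, was at 9.998, 9.91 and 11.01 in DMSO and 10.9 and 11.8 in HU, with overlap (0.13, adjusted p = 0.536). Of 20 tested genes of the G1/S transition 0 passed (median 0.0077). The median of 45 genes of G2/M and mitosis was -0.05. Of these, 0 rose and 2 fell (4.44%, against 3.73% of all genes tested). Those 2 encode Cks1b, a cyclin-dependent kinase subunit, and Birc5, the chromosomal passenger survivin. Cks1b was at 155, 155 and 120 in DMSO and 83.7 and 84.3 in HU (-0.75), and Birc5 at 86.2, 83.6 and 75.3 against 57.0 and 58.2 (-0.49). After the correction both missed the threshold (adjusted p = 0.0930 and 0.0710).

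Among genes with an established symbol and a mean of at least 10 in the higher group, the 4 largest rises were those of inducible transcription factors. Jun and Fos encode the partners of the AP-1 dimer, Egr1 encodes a zinc finger factor, and all 3 are immediate early genes that are switched on within minutes of many stimuli. Nfkb2 encodes p100, the precursor of the p52 subunit of the non-canonical NF-kB pathway. The bases that precede the start of Jun, Fos and Nfkb2 are shown because these genes rose together while most of their tested relatives did not pass. Each is 250 bases long, ends at the base before the RefSeq transcription start (GRCm38.p6) and runs toward the gene; capitals mark matches to the motifs named after them. Nfkb2 has 3 starts in RefSeq, of which the first in genome order is given.
Jun (minus strand, chr4:95052223-95052472): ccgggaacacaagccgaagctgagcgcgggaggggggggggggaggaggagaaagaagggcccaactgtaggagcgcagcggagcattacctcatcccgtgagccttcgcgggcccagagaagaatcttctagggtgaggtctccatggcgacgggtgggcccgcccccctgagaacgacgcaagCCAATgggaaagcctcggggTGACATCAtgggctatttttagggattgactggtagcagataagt
Fos (plus strand, chr12:85473640-85473889): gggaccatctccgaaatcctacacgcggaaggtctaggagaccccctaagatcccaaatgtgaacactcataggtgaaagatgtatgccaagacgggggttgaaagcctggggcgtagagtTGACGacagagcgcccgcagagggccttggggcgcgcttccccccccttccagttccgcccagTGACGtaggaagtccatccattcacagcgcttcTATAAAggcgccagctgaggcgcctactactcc
Nfkb2 (plus strand, chr19:46304487-46304736): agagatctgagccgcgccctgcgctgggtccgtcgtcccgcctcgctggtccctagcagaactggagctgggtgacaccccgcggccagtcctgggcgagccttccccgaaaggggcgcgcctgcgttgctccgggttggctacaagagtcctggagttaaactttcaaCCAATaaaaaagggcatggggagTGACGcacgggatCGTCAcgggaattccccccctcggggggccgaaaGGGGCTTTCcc

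Motifs were searched on both strands of the 250 bases as the AP-1 site TGANTCA, the cyclic AMP response element TGACNTCA, its core TGACG, the core of the NF-kB site GGGNNTTTC, the TATA box TATAAA and the CCAAT box CCAAT. The core TGACG can lie within the longer TGACNTCA. The Jun promoter held TGACATCA from 45 to 38 bases before the start and CCAAT from 65 to 61. That of Fos held TATAAA from 33 to 28 bases before the start and TGACG at 66 to 62 and at 129 to 125. That of Nfkb2 held GGGGCTTTC from 11 to 3 bases before the first start, beside CCAAT at 81 to 77 and TGACG on either strand at 58 to 54 and 45 to 41. Before its second start lay the AP-1 match TGAATCA at 210 to 204. That window also held the NF-kB core, as GAAAATCCC, at 182 to 174 and TGACG, as CGTCA, at 40 to 36. A match GGGACTTTC lay 225 to 217 bases before the last of its starts. Among the 6946 tested genes with a RefSeq promoter, 6.97% held TGACNTCA, 32.1% TGACG, 4.56% GGGNNTTTC, 7.27% TATAAA, 41.2% CCAAT and 5.15% TGANTCA. Of the 87 matched genes called higher, 12.6%, 35.6%, 4.6%, 5.75%, 46.0% and 5.75% did. These shares are a description, since Jun, Fos and Nfkb2 are themselves among the genes called higher. Of all 146 called higher, 43 passed the filter through the HU libraries alone and so had to be higher there. Over all 27025 genes with a RefSeq promoter the shares were 8.55%, 19.8%, 4.35%, 14.3%, 37.5% and 7.82%. These are matches of letters and were not tested as binding sites.

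Jun lay at 14, 14.4 and 19.8 in DMSO and at 198 and 176 in HU. The lower HU value was several times the highest DMSO value, and the rise was 3.48 ± 0.15 SE on the log2 scale (limma adjusted p = 0.000266). Fos lay at 24.7, 23.1 and 26.8 in DMSO and at 166 and 155 in HU, a rise of 2.65 ± 0.09 SE (adjusted p = 9.66e-05). Jun and Fos were called under all 16 alternative settings, with fold changes between 3.07 and 3.63 for Jun and between 2.23 and 2.76 for Fos. The annotated gene Junos overlaps Jun on the opposite strand, and reads from it could not be told apart, since strand is not stated for these libraries.

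Egr1 was low in DMSO at 1.70, 2.07 and 2.30 and reached 13.9 and 16.1 in HU (2.41); it passed the filter through the HU libraries alone and so had to be higher there, and no test is given for it. Nfkb2 lay at 16.8, 18.6 and 29.0 in DMSO and at 145 and 144 in HU, a rise of 2.74 ± 0.21 SE (limma adjusted p = 0.00369). DMSO 3 was the highest control library for both, and neither gene's groups came near each other. Nfkb2 lost its call when either HU library was left out (largest adjusted p 0.0882) and under no other alternative run. Their relatives gave values near 0: Junb was at 0.13, Atf3 at 0.23, Myc at -0.16 and the early genes Ier2 and Dusp1 at -0.0049 and -0.17, none of which passed. Of 30 immediate early and AP-1 genes 15 could be tested, 3 were called higher, Egr1 among them, and 0 lower, and the median was 0.06. In the NF-kB list of 17 tested genes 1 rose and 0 fell, with a median of 0.04. Nfkb1, the gene of the canonical p105 precursor, was at 0.23, Relb, whose protein pairs with p52, at 0.14, and the inhibitor gene Nfkbia at -0.26, and none passed.

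**Figure D3:**
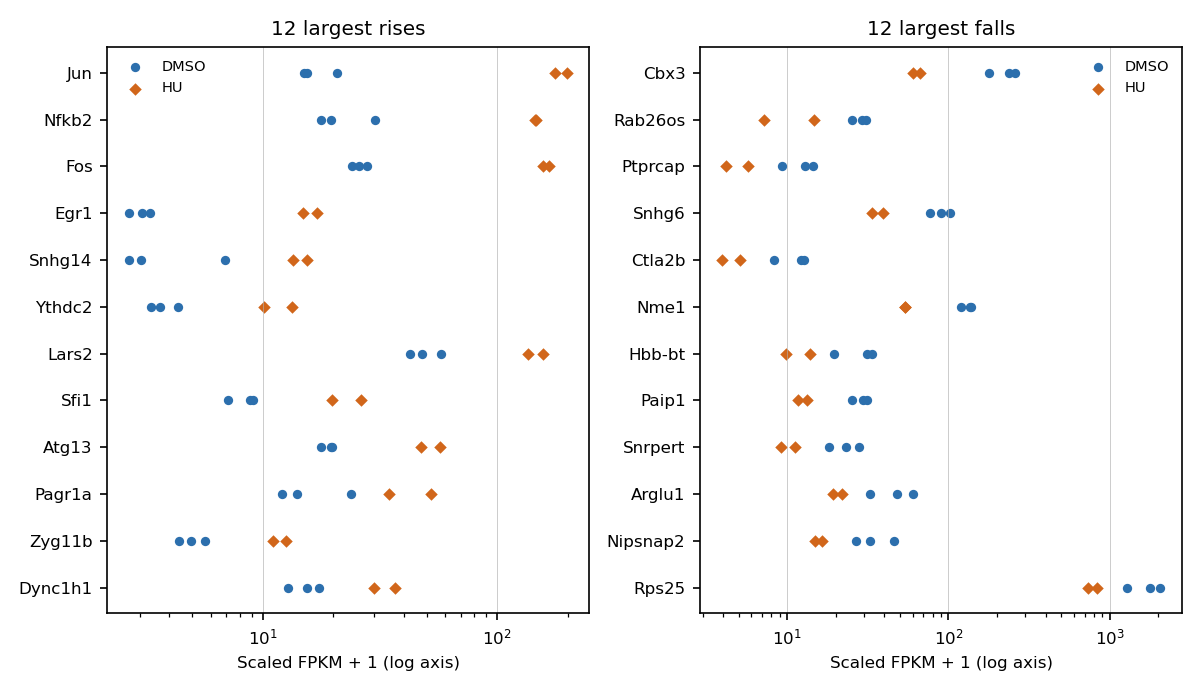
The 12 largest rises (left) and 12 largest falls (right) named by rule, as scaled FPKM + 1 in each library on a log axis; circles are the 3 DMSO and diamonds the 2 HU libraries. In no gene shown do the groups overlap, and Jun, Nfkb2 and Fos have the widest gaps.

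The other large rises encoded proteins of varied function. Lars2, the mitochondrial leucyl-tRNA synthetase, lay at 41.5, 46.7 and 56.6 in DMSO and at 156 and 135 in HU (1.58 ± 0.14 SE, limma adjusted p = 0.00624). Of 13 tested mitochondrial tRNA synthetase genes it was the 1 that rose, and the median of that list was 0.03. Gm15564, a short transcript on another chromosome that was named after its values were seen, stood at 2.68, 2.06 and 1.04 in DMSO and 23.0 and 11.2 in HU (2.59, passing the filter through HU alone), while the mitochondrial ribosomal RNA genes mt-Rnr1 and mt-Rnr2 were at -0.51 and -0.12 without passing. Ythdc2, an RNA helicase that binds methylated adenosine, was at 3.36, 2.33 and 2.65 in DMSO and 12.4 and 9.13 in HU (1.63); it too passed the filter through HU alone. Sfi1, a centrosome protein, lay at 7.81, 8.14 and 6.15 against 25.2 and 18.8 (1.45), and Dync1h1, the heavy chain of the dynein motor, at 16.3, 14.4 and 11.9 against 28.9 and 35.7 (1.13). Zyg11b, a substrate receptor of a ubiquitin ligase, was at 3.38, 3.95 and 4.69 against 11.6 and 10.1 (1.25).

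Snhg14 and Pagr1a were less certain among the 12. Snhg14, a long RNA that hosts small nucleolar RNAs and runs antisense to Ube3a, lay at 2.02, 1.70 and 5.92 in DMSO and 12.5 and 14.4 in HU (1.91 ± 0.40 SE, limma adjusted p = 0.0456). Pagr1a, part of a histone methyltransferase complex, lay at 11.05, 13 and 22.8 in DMSO and 51.4 and 33.7 in HU (1.42 ± 0.31 SE, adjusted p = 0.0480), and it overlaps its copy Pagr1b in the annotation. DMSO 3 was the nearest control library for both genes. Snhg14 lost its call in 9 and Pagr1a in 10 of 16 alternatives, the length and level correction among them (adjusted p = 0.115 and 0.0720).

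Among genes with an established symbol and a mean of at least 10 in the higher group, the largest fall was that of Cbx3, which encodes HP1 gamma, a reader of the repressive histone mark at lysine 9 of histone H3. It stood at 237, 258 and 178 in DMSO and at 59.4 and 65.6 in HU. Both HU values lay below the lowest DMSO value by a wide margin, which gave -1.81 ± 0.16 SE on the log2 scale (limma adjusted p = 0.00603) and -1.75 (adjusted p = 0.0133) after the correction. Cbx3 has processed copies elsewhere in the genome, so its level depends on how the authors' counting treated shared reads. The sister genes Cbx5 and Cbx1 were at -0.05 and 0.00036 and did not pass. In the list of 24 tested genes of heterochromatin and repressive marks Cbx3 was the only member called in these 5 libraries, with 0 rises, 1 fall and a median of -0.02.

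Set, which encodes a histone chaperone and phosphatase inhibitor, fell as well. It lay at 199, 204 and 179 in DMSO and at 106 and 96.0 in HU (-0.93 ± 0.09 SE, limma adjusted p = 0.00723), and at -0.83 (adjusted p = 0.0179) after the correction. Npm1, the nucleolar chaperone gene, lay at 448, 427 and 417 against 320 and 290 (-0.50), and was not called after the correction (adjusted p = 0.103). Of the 30 genes of DEK, SET and histone chaperones 0 rose and 3 fell (median -0.11), of which 1 was called after the correction. Set and Npm1 also have processed copies. Of 32 replication-dependent histone genes, whose transcripts lack a poly(A) tail and peak in S phase, only 8 could be tested, and 0 rose and 2 fell (median -0.33). H4c9 lay at 17.9, 17.8 and 16.2 in DMSO and 11.7 and 10.8 in HU (-0.58). H2ac20 lay at 3.85, 4.51 and 5.10 in DMSO and was listed at 0 in HU 1 and at 0.882 in HU 2; it passed the filter through DMSO alone. No length was matched for this list, so the correction could not be made for it.

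Genes of oxidative phosphorylation made up the largest group of falls in absolute number. Of 76 nuclear genes for subunits of the respiratory chain and ATP synthase, all were tested, 0 rose and 36 fell. The share called lower was 3.73% over all genes tested and 47.4% of these 76. Their median was -0.45, and their summed level was 17970 to 19830 in DMSO and 14820 and 14420 in HU. Without overlap 60 lay lower (78.9%, against 21.3% of all genes tested) and 1 higher (1.32%, against 21.1%). Members of every complex but the succinate dehydrogenase were among the 36. Uqcrb, a subunit of complex III, lay at 345, 338 and 336 in DMSO and at 207 and 222 in HU (-0.66 ± 0.08 SE, limma adjusted p = 0.0126). Ndufb6, of complex I, lay at 173, 167 and 164 in DMSO and at 105 and 112 in HU (-0.63 ± 0.08 SE, adjusted p = 0.0143). The 3 DMSO libraries stood close together for these 2 genes and well above both HU libraries.

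Further members were named after their values were seen. Ndufa1, of complex I, lay at 275, 291 and 216 in DMSO and 132 and 139 in HU (-0.92). Cox5b, of cytochrome c oxidase, lay at 507, 510 and 447 against 303 and 310 (-0.67), and Atp5g1, a c subunit of ATP synthase, at 486, 454 and 412 against 295 and 267 (-0.68). The copper chaperone gene Cox17, which loads cytochrome c oxidase and is not on the list, was at 168, 196 and 171 against 89.9 and 93.6 (-0.95, limma adjusted p = 0.00723). These genes are short: the list's median exonic length was 1737 bases. After the length and level correction the median was -0.14 and 1 of 74 members was called lower, while 35 lay lower and 8 higher without overlap. Over all corrected genes 19.2% lay lower and 19.2% higher. With quantile normalization 5 of 76 members were called lower, and without the mean-variance trend 3 of 76. The count was 45 without DMSO replicate 3, 3 without DMSO replicate 2, and 0 without DMSO replicate 1 or either HU library, and the median relative to all genes stayed between -0.40 and -0.48 in those 5 fits.

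The factor NRF1 is known to drive many respiratory chain genes. The promoter of Atp5h, which encodes the d subunit of ATP synthase, is shown with its match to the NRF1 core GCGCANGCG and matches to CCAAT in capitals. It is 1 of 8 called members with this match and a single RefSeq start, out of 33 called members with a RefSeq promoter. Atp5h lay at 414, 418 and 353 in DMSO and at 267 and 257 in HU (-0.59, limma adjusted p = 0.0291). After the length and level correction it was at -0.28 and was not called (adjusted p = 0.153).
Atp5h (minus strand, chr11:115419920-115420169): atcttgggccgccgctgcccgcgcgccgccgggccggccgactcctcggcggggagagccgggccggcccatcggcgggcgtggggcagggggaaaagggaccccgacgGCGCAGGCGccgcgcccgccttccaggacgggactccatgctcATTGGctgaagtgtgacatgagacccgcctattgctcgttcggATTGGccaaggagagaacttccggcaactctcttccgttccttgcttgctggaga

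The NRF1 match lies 141 to 133 bases before the RefSeq start (GRCm38.p6), in a window of the same kind and length as above and searched on both strands. Of the 64 list members with a RefSeq promoter 15 held this motif (23.4%), against 14.3% of the tested genes with a promoter and 5.86% of all genes with one. It was present in 16.9% of the matched genes called lower and 10.3% of those called higher. Both called sets include genes that passed the filter through a single group, so these shares are a description. The 13 protein genes of the mitochondrial genome, which are transcribed inside the organelle, had a median of -0.21 with 0 rises and 1 fall. This was mt-Nd2, at 359, 345 and 413 in DMSO and 259 and 277 in HU (-0.47, limma adjusted p = 0.0480), and at -0.10 after the correction. Within this list mt-Nd4l was at -0.74 and mt-Co3 at 0.36, and neither passed.

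Genes of the ribosome were lower by a like amount. Of 79 cytosolic ribosomal protein genes 0 rose and 21 fell (26.6%, against 3.73% of all genes tested), and the median was -0.50. Without overlap 66 lay lower (83.5%, against 21.3% of all genes tested) and 1 higher (1.27%, against 21.1%). Rpl7a lay at 657, 681 and 582 in DMSO and at 390 and 351 in HU (-0.79 ± 0.10 SE, limma adjusted p = 0.0179). Rps25 was the member with the largest fall, at 1771, 2049 and 1282 against 833 and 730 (-1.10), and was not called after the correction (adjusted p = 0.0673). Ribosomal protein genes have many processed copies, so shared reads make single values uncertain.

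With the correction the ribosomal protein median was -0.29 and 3 of 79 were called lower; without DMSO replicate 3 the count was 57, without DMSO replicate 2 it was 2, and without DMSO replicate 1 or either HU library it was 0. With quantile normalization 8 of 79 were called lower, and without the mean-variance trend 2 of 79. DMSO 3 lay below the other controls over this list, with a median deviation from the DMSO mean of -0.16 against 0.04 and 0.13. HU 1 and HU 2 were at -0.38 and -0.59. Among ribosome biogenesis genes, which act in the nucleolus, 45 were tested, 0 rose and 1 fell (0 after the correction), with a median of -0.10. Of the 78 mitochondrial ribosomal protein genes, a list added after the values were seen, 0 rose and 11 fell (14.1%). Over all genes tested 3.73% fell. The median of the list was -0.26, and 4 members were called lower after the correction. Mrpl33 was at 202, 218 and 209 in DMSO and 110 and 120 in HU (-0.86), and Mrpl21 at 49.4, 49.2 and 44.9 against 27.9 and 27.3 (-0.77).

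**Figure D4:**
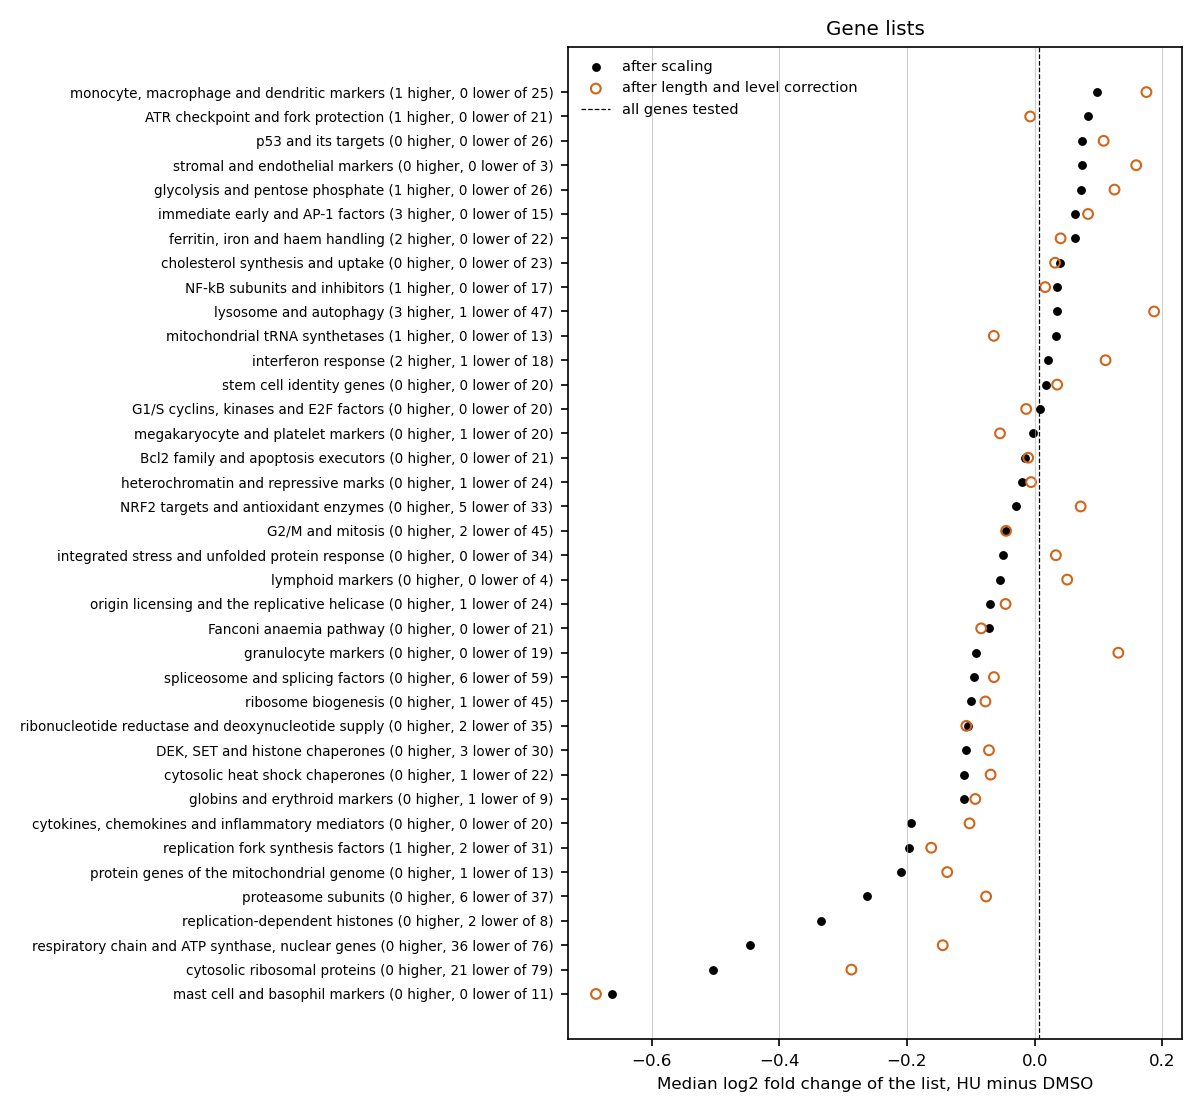
Each row is a gene list with its counts called higher and lower of the members tested. Filled points are the median log2 fold change after scaling and open points the median after the length and level correction; the dashed line is the median of all genes tested, 0.0075. Ribosomal proteins (-0.50) and respiratory chain genes (-0.45) lie farthest left of the lists with calls, and their open points lie nearer 0.

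Host genes of small nucleolar RNAs, many of which begin with the same pyrimidine tract as ribosomal protein genes, formed another group added after the values were seen: of 15 tested 1 rose (Snhg14) and 6 fell, with a median of -0.39; after the correction 0 of 14 were called higher and 2 lower, with a median of -0.41. Snhg6 lay at 89.4, 102 and 75.4 in DMSO and at 38.5 and 32.5 in HU (-1.29 ± 0.14 SE, limma adjusted p = 0.00994), and it stayed called after the correction (-1.01, adjusted p = 0.0203). Gas5, the growth arrest transcript, lay at 628, 708 and 541 against 357 and 380 (-0.75), Zfas1 at 44.2, 53.7 and 35.3 against 22.9 and 23.1 (-0.90), and Snhg8 at 68.9, 73.0 and 67.1 against 36.0 and 42.3 (-0.82). Rab26os, a short RNA that overlaps Snord60 and lies opposite Rab26, lay at 28.0, 29.9 and 24.1 against 6.17 and 13.6 (-1.46). After the correction Gas5, Zfas1, Snhg8 and Rab26os were not called (adjusted p = 0.0680, 0.0652, 0.0710 and 0.0915). Like every gene called lower, Snhg6, Gas5, Zfas1, Snhg8 and Rab26os had both HU libraries below all 3 DMSO libraries. Each of them shares bases with annotated small RNA genes on its strand. Paip1, whose protein links the poly(A)-binding protein to translation initiation, lay at 28.4, 30.3 and 24.3 against 12.4 and 10.7 (-1.19, adjusted p = 0.00869).

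Of 59 tested spliceosome and splicing factor genes 0 rose and 6 fell (10.2%, against 3.73% of all genes tested), with a median of -0.10. Of the 6, 4 encode Sm proteins, the ring that binds spliceosomal small nuclear RNAs. Snrpg lay at 261, 292 and 229 in DMSO and 146 and 163 in HU (-0.75), and Snrpe at 235, 240 and 202 against 143 and 134 (-0.70). Snrpert, a retrotransposed relative of Snrpe, lay at 22.2, 17.1 and 26.8 against 8.15 and 10.3 (-1.16) and cannot be told apart from it where reads match both. Arglu1, which encodes a splicing modulator, lay at 46.9, 59.5 and 31.9 in DMSO and at 20.8 and 18.2 in HU (-1.16 ± 0.24 SE, limma adjusted p = 0.0442). After the correction Snrpg, Snrpe, Snrpert and Arglu1 had adjusted p of 0.102, 0.0776, 0.152 and 0.0710, and 0 of the 59 listed genes were called.

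Proteasome subunits and a polyubiquitin gene moved in opposite directions. Of 37 proteasome genes 0 rose and 6 fell (16.2%, against 3.73% of all genes tested). The median was -0.26 (-0.08 after the correction, with 1 fall). Without overlap 28 lay lower (75.7%, against 21.3% of all genes tested) and 3 higher (8.11%, against 21.1%). Psmb7, a catalytic subunit, lay at 95.0, 94.8 and 93.9 in DMSO and at 59.7 and 59.5 in HU (-0.66 ± 0.07 SE, limma adjusted p = 0.00994), and was the 1 that passed after the correction (-0.58, adjusted p = 0.0211). Psmb5, the chymotrypsin-like subunit, lay at 404, 383 and 370 against 271 and 283 (-0.48). The polyubiquitin gene Ubb, named after its values were seen, rose. It lay at 1285, 1201 and 1277 in DMSO and 2024 and 2244 in HU (0.77 ± 0.10 SE, adjusted p = 0.0158), and stayed called in the deposited values (adjusted p = 0.0255). Oaz1, the ornithine decarboxylase antizyme that sends its target to the proteasome, lay at 1771, 1544 and 1952 against 3221 and 3310 (0.90, adjusted p = 0.0208). Cytosolic heat shock genes had 0 rises and 1 fall of 22, Ptges3, a co-chaperone of HSP90, at 165, 174 and 153 against 117 and 105 (-0.56), which was not called after the correction (-0.39, adjusted p = 0.0856).

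Genes of autophagy initiation were among the rises. Atg13, a scaffold of the ULK1 kinase complex that starts autophagosome formation, lay at 18.7, 16.7 and 18.9 in DMSO and at 56.1 and 46.5 in HU. The DMSO libraries differed little from each other, and the rise was 1.45 ± 0.11 SE (limma adjusted p = 0.00369) and 1.43 (adjusted p = 0.00579) after the correction. Atg101, which binds Atg13 in that complex, lay at 35.5, 29.5 and 23.3 against 51.0 and 49.5 (0.77), the lipid transfer protein gene Atg2a at 4.23, 3.70 and 3.53 against 7.27 and 7.95 (0.84), and Atg16l2 at 14.3, 13.9 and 14.1 against 19.5 and 18.6 (0.41). Of 17 tested genes with Atg symbols, a list made after the values were seen, 4 were called higher and 0 lower, with a median of 0.11. Atg2a passed the filter through the HU libraries alone, so its place among the 4 is a description. After the correction 2 of the 17 were called higher, and Atg2a and Atg16l2 were not (limma adjusted p = 0.115 and 0.143). In the deposited values 1 of these 17, Atg13, was higher and 7 were lower.

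Of 47 lysosome and autophagy genes 3 rose and 1 fell (median 0.04), against 3 and 0 after the correction (median 0.19). Without overlap 18 lay higher (38.3%, against 21.1% of all genes tested) and 10 lower (21.3%, the same share as over all genes). Lipa, the lysosomal acid lipase that frees cholesterol and fatty acids, lay at 431, 397 and 636 in DMSO and at 983 and 1018 in HU (1.06 ± 0.19 SE, limma adjusted p = 0.0342). The gene that fell was Atp6v0e, a subunit of the proton pump, at 417, 413 and 373 against 287 and 304 (-0.44). Psap and Ctsd, of the lysosomal lumen, were at 0.68 and 0.38 without passing. Lipa is abundant in macrophages, and the summed level of 29 monocyte, macrophage and dendritic markers was 27290 to 36260 in DMSO, highest in DMSO 3, and 47470 and 51170 in HU. Of the 25 markers tested 8 lay higher (32.0%, against 21.1% of all genes tested) and 2 lower (8.0%, against 21.3%) without overlap. In limma 1 rose and 0 fell, and the median was 0.10. The 1 was C1qb, a chain of complement C1q made by macrophages, at 42.1, 38.9 and 49.2 in DMSO and 78.2 and 74.8 in HU (0.81 ± 0.11 SE, adjusted p = 0.0215). The part of these markers in the rise of Lipa was not tested, and in bulk libraries the number of cells of a type and the RNA that each cell holds cannot be told apart.

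In the list of ferritin, iron and haem handling 2 of 22 rose and 0 fell (median 0.06). Ftl1, the ferritin light chain and the most abundant transcript here, lay at 31850, 28840 and 39520 in DMSO and at 60540 and 67160 in HU (0.95 ± 0.20 SE, limma adjusted p = 0.0455). Ftl1 kept its call in only 5 of 16 alternative settings. Among the settings that lost it were the deposited values (0.53, adjusted p = 0.0509) and a pseudocount of 0.1. Quantile normalization gives the most abundant gene the same value in every library. The loss of the Ftl1 call there was therefore fixed in advance, though it is counted among the 16. The call was also lost after the correction (0.15, adjusted p = 0.571), where a gene at the upper end of the level range has few neighbours. Fth1, the heavy chain, lay at 14130, 12810 and 19040 against 26180 and 28080 and missed the threshold (0.84, adjusted p = 0.0611). The ferritin copy Ftl1-ps1 was also called higher, so reads of the family may have been divided. Slc40a1, the iron exporter ferroportin, which macrophages express, lay at 104, 103 and 119 against 158 and 153 (0.52 ± 0.09 SE, adjusted p = 0.0313), and was not called in the deposited values (0.10, adjusted p = 0.327).

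Antioxidant enzymes held 0 rises among 33 tested and 5 falls (15.2%, against 3.73% of all genes tested), with a median of -0.03. All 5 falls were in enzymes that remove superoxide or peroxide or reduce thiols. Sod1, the cytosolic superoxide dismutase, lay at 2149, 2267 and 1719 in DMSO and at 1129 and 1146 in HU (-0.84 ± 0.13 SE, limma adjusted p = 0.0263). Prdx3, the mitochondrial peroxiredoxin, lay at 68.2, 69.4 and 65.8 against 48.3 and 48.6 (-0.48), and Prdx2, Prdx4 and the thioredoxin gene Txn1 were at -0.40, -0.43 and -0.45. Without overlap 8 lay higher (24.2%, against 21.1% of all genes tested) and 14 lower (42.4%, against 21.3%). Hmox1, Nqo1 and Gclm, which are induced by the factor NRF2, were at 0.29, -0.0050 and 0.36 without passing. After the correction 0 of the 33 were called, with Sod1 at -0.85 (adjusted p = 0.0507).

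Interferon-response genes gave 2 rises and 1 fall of 18 tested (median 0.02), and 0 of the 16 with a length were called after the correction (median 0.11). Rigi, the cytosolic RNA sensor RIG-I, lay at 3.74, 5.44 and 4.44 in DMSO and at 10.9 and 10.2 in HU (1.07 ± 0.18 SE, limma adjusted p = 0.0272). Irf1, a transcription factor, lay at 39.3, 36.4 and 37.9 against 49.6 and 55.9 (0.47), and Bst2, which tethers viruses to the membrane, at 93.4, 101 and 91.9 against 67.9 and 65.6 (-0.51). After the correction Irf1 was at 0.47 (adjusted p = 0.0653) and Bst2 at -0.17 (adjusted p = 0.258), and Rigi had no length. In the deposited values Irf1 was not called (0.06, adjusted p = 0.6225). Stat2, a transcription factor of the pathway, was at 0.32 and did not pass, and 14 of the 32 listed genes were too low to test. Of 20 tested genes of cytokines and inflammatory mediators 0 passed (median -0.19). In the list of glycolysis and the pentose phosphate pathway 1 of 26 rose and 0 fell: Hk1, a hexokinase, lay at 37.5, 34.9 and 36.6 against 56.0 and 53.4 (0.58, limma adjusted p = 0.0215). Hk1 was not called in the deposited values (0.17, adjusted p = 0.117).

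Markers of mast cells and basophils had the lowest median of the 38 lists after scaling, at -0.66, without a call among 11 tested. Prss34, a basophil protease, lay at 262, 669 and 109 in DMSO and at 103 and 117 in HU, and Mcpt8 lay at 111, 280 and 49.7 in DMSO and at 53.2 and 43.8 in HU. DMSO 3 stood with the HU libraries in both, and DMSO 2 stood highest. The summed level of the 18 listed genes was 1231, 1882 and 794 in DMSO and 736 and 701 in HU, and the mast cell proteases Mcpt4, Cma1 and Tpsb2 were at or near 0 in every library. Fcer1a, a chain of the IgE receptor, did not overlap, at 44.3, 92.4 and 26.7 against 14.6 and 11.9 (-1.79), but missed the threshold (limma adjusted p = 0.0715). Without DMSO replicate 3, 9 of the 11 were called lower, so this library decides whether the list shows a change.

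Other lineages showed few calls. Of 19 tested granulocyte markers and of 4 lymphoid markers 0 passed, and 3 tested stromal and endothelial markers gave 0. Among 20 megakaryocyte and platelet markers 0 rose and 1 fell, Treml1, at 32.2, 43.3 and 30.9 in DMSO and 22.1 and 20.1 in HU (-0.71). Among 9 tested erythroid genes 0 rose and 1 fell, the adult globin Hbb-bt, at 30.1, 32.5 and 18.5 in DMSO and 12.9 and 8.88 in HU (-1.22 ± 0.26 SE, limma adjusted p = 0.0460). Its neighbour Hbb-bs lay at 8.53, 24.2 and 8.23 against 9.70 and 7.90, with overlap. After the correction Treml1 and Hbb-bt were not called (adjusted p = 0.128 and 0.101). A further 3 genes complete the largest falls by rule apart from those above: Ptprcap, a CD45-associated protein, lay at 13.4, 11.96 and 8.29 against 3.17 and 4.69 (-1.30), Ctla2b, a cysteine protease inhibitor, at 11.2, 11.8 and 7.27 against 4.08 and 2.95 (-1.28), and Nipsnap2, a mitochondrial matrix protein, at 31.4, 44.7 and 25.8 against 15.4 and 13.8 (-1.13). Ptprcap and Ctla2b passed the filter through the DMSO libraries alone, and none of the 3 was called after the correction (limma adjusted p = 0.0618, 0.0616 and 0.0663).

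**Figure D5:**
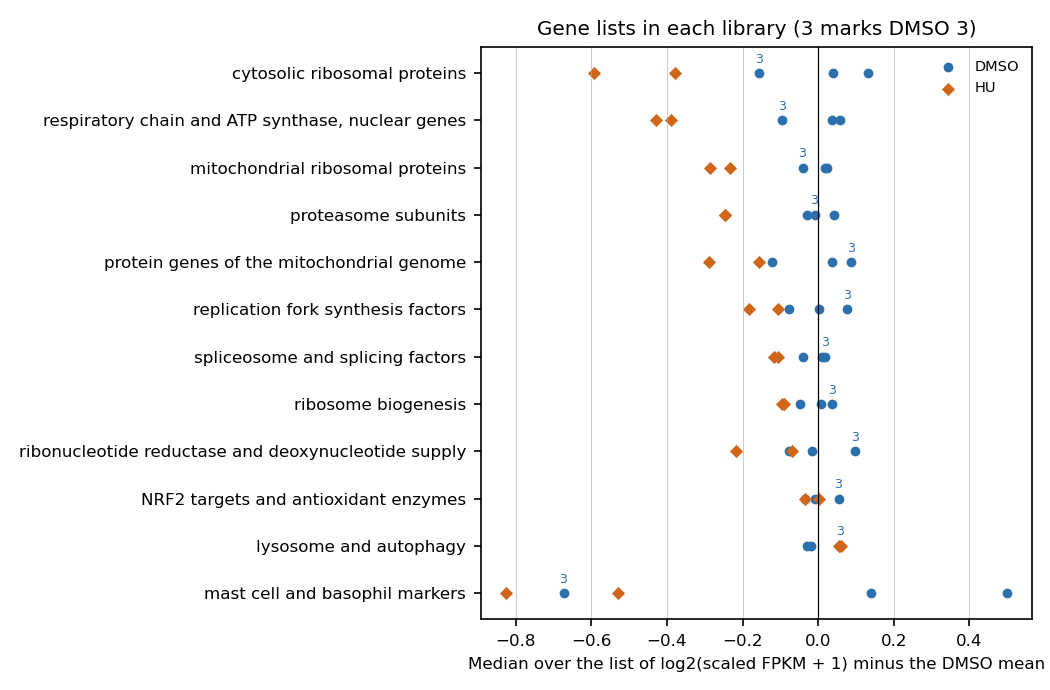
For each of 12 gene lists the median over its members of log2(scaled FPKM + 1) minus the DMSO mean is shown per library; circles are DMSO, with a 3 above DMSO 3, and diamonds are HU. HU lies apart from all DMSO libraries for ribosomal proteins, with -0.38 and -0.59 against -0.16 to 0.13, while for mast cell and basophil markers DMSO 3 at -0.67 lies between the HU libraries at -0.53 and -0.83.

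The filter and the zeros account for part of the calls. Of the 8922 genes, 57 passed the filter through the HU libraries alone, and 43 of these were called higher; 493 passed through the DMSO libraries alone, and 17 of these were called lower. Members of the first kind had to be higher in HU, so they are counted here as a description. A set of 12 tested genes was listed at 0 in all 3 DMSO libraries, all 12 were called higher, and 11 of them were shorter than 200 bases. The extreme case, mt-Tq, a mitochondrial transfer RNA gene of 71 bases, was listed at 0 in DMSO and at 8240 and 7018 in HU. In the other direction 19 genes were listed at 0 in both HU libraries, of which 4 were called lower and 13 were shorter than 200 bases. No fold is given for these genes.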

How the data were processed

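The authors deposited 1 table of FPKM values per gene and library, and it was used as deposited. Per the labels' protocols, complementary DNA of small RNA inputs was amplified by Geo-seq and made into libraries with a transposase kit. Per the submitters' processing notes the tools were HTSeq, DESeq2, Cufflinks 2.1.1 and Bowtie 0.12.9 with build mm10, without roles; which tool and annotation gave the FPKM is not stated there. FPKM keeps no total, no common step of 1 read was found among low values, and depth is therefore unknown.

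The 5 columns were matched to samples by name, and 0 were left unmatched. Scaling removed 30% of ratios and 5% of levels at each end. The test was limma 3.58.1 (R 4.3.3) on log2(scaled FPKM + 1), with a pseudocount of 1, a trend of variance with mean, 3 residual degrees of freedom among libraries, no block, two-sided, with Benjamini-Hochberg adjustment over all 8922 genes; every adjusted p is of this kind. Fits were tested on simulated data of normal noise without the length trend seen here, so this does not bear on how far the calls can be trusted. Python 3.11.15 drew the figures. Lengths and gene coordinates are those of GENCODE M21 (GRCm38) and matched 97.7% of tested genes; the correction was a loess (span 0.3) on length and mean level.

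Named were Rrm1, Rrm2, Rrm2b, Dek, Cdkn1a, Mdm2 and Mki67, then the 12 largest rises and 12 largest falls that passed without overlap, with a mean of at least 10 in the higher group and an established symbol, and, per list, at most 2 called members by smallest p. Other genes were chosen after their values were seen. Some results are not reported here. Members, lists and rules were chosen with earlier results of these data known. Alternatives were the scaling, the pseudocount, the filter, the variance model, library weights, a replicate block, the correction, and leaving out each library.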

Additional observations from a re-analysis of the deposited data

How the results depend on the processing

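Against 146 genes higher and 333 lower, limma gave 85 and 4837 on the deposited values, 127 and 612 after rescaling to the same sum, 108 and 117 with quantile normalization, 597 and 508 with an FPKM of at least 1 in 2 libraries, 3070 and 827 without a filter, 78 and 48 without the mean-variance trend, 253 and 583 with library weights, and 62 and 48 with the length and level correction. Leaving out 1 library gave 6 to 234 higher and 3 to 597 lower; the 3 without HU replicate 1 held 0 of the 333. Genes without overlap, 1887 higher and 1897 lower, came to 181 and 6497 as deposited, 1210 higher after rescaling to the same sum, 2878 higher with an FPKM of at least 1, 11575 and 4127 without a filter, and 2206 to 2953 and 2180 to 2904 with 1 library left out. Weaker filters bring more genes into the test, and with 1 library left out fewer values have to lie apart. The cause of these shifts was not tested. Lists with a median below that of all genes numbered 24 of 38, 37 without a filter and 19 to 26 with 1 library left out. Of the 479 genes that passed, 5 had the opposite sign on the deposited values, none of them called there, and 0 had it under the other 15 alternatives, of which the correction covered 460 and a mean FPKM of at least 5 covered 451. Of the 55 named genes that passed, 51 kept the call on the deposited values, 35 with quantile normalization, 26 without the trend, 25 of 52 with the correction, 8 without DMSO replicate 1, 25 without DMSO replicate 2, 2 without HU replicate 1 and 4 without HU replicate 2. The differences in FPKM sum (-174300), genes above 0 (8116) and olfactory genes (808.3) moved by less than the DMSO spread when a library was left out.

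With the replicate number as a block, limma called 185 genes higher and 540 lower, of which 115 and 290 were among the 146 and 333. DMSO 3 is alone in its block, so it does not enter the fold changes of this fit. For ribosomal proteins the median relative to all genes was -0.611 both here and in the fit without DMSO replicate 3. The labels do not say that a number marks a shared mouse or culture. Deviations of same-numbered libraries from their group means correlated at 0.102 and 0.0373, and those of HU 2 and DMSO 3 at 0.0462. The other differently numbered pairs were at -0.0373, -0.0462 and -0.102. Deviations of the 2 HU libraries mirror each other, so these values cannot show whether a number marks a pair. DMSO 3 has no partner.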
